A study of Oryza sativa Japonica Group with 6 samples.

Results

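The gibberellin perception and DELLA signalling genes of rice were followed in young panicles of NIL-*hfr131* and 187R. The 6 genes, named by their identifiers, were *GID1*, *GID2*, *SLR1*, *SLRL1*, *OsSPY* and *OsGAMYB*, out of 42189 genes listed in the RNA-seq table. NIL-*hfr131* (genotype label *hfr131*, called a mutant of 187R in the titles) is a near-isogenic line with a fragment of wild rice *Oryza longistaminata* on the long arm of chromosome 1. The fragment brings an allele of the brassinosteroid receptor gene *OsBRI1* with an amino acid substitution in the kinase domain and a deletion in the promoter. 187R (genotype label *HFR131*) is the *indica* restorer line that was the recurrent parent, although the organism label names *japonica* rice. Panicles of both lines were taken before heading with no treatment, and each line had 3 libraries labelled as biological replicates. Genes of the wild-rice fragment other than *OsBRI1* also differ by descent between the lines, so their effects and that of *hfr131* cannot be told apart.

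Gibberellin enters the cell and binds GID1, a soluble receptor, and the loaded receptor then grips the DELLA protein SLR1, which holds growth genes back. GID2 is the F-box subunit of the ubiquitin ligase that marks SLR1 for destruction, so SLR1 is controlled mainly at the protein, which transcript levels do not measure. SLRL1 is a relative of SLR1 that lacks the DELLA stretch, OsSPY is a sugar transferase that strengthens the repressive action of SLR1 and has been tied to brassinosteroid synthesis in rice, and OsGAMYB is a MYB transcription factor downstream of SLR1 that is needed for aleurone enzymes and for anthers. Brassinosteroid and gibberellin signals meet at several of these steps, so the comparison asks whether a changed brassinosteroid receptor goes with changed transcripts of the gibberellin response.

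The values are in TPM, which corrects for gene length and scales the transcripts of each library to a total of 1000000. Levels of different genes can thus be set side by side. Sequencing depth cannot be read from TPM, so counting error is unknown. Errors beside means are the SD of the 3 libraries of a line. Intervals of fold changes come from a model (limma) that pools the spread of both lines. The model also draws that spread toward the one typical of genes at a similar level. NIL-*hfr131* replicate 3 stood apart from the rest, with Pearson correlations across genes of 0.916 to 0.937 with the other libraries, which correlated at 0.982 to 0.991 with each other. Results are therefore also given without it. The names of most other genes are not paired with identifiers in the sources used here, so markers of panicle stage or of other cell types were not checked, and more RNA per cell and more cells of a type cannot be told apart in such bulk samples.

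Of the 6 genes, 0 were called in the comparison of NIL-*hfr131* with 187R at an adjusted *P* under 0.05 (limma, Benjamini-Hochberg over 21531 tested genes), where 0.307% of all tested genes were called. At an unadjusted *P* under 0.05, 1 of the 6 passed, *OsGAMYB*, against 8.36% of all tested genes. It was also the only gene of the 6 whose NIL-*hfr131* libraries all lay above those of 187R, and 18.5% of all tested genes had lines with separate ranges. The other 5 genes had absolute log2 fold changes under 0.2. The median log2 fold change was 0.10 for the 6 genes and 0.05 for all tested genes. All 6 passed the filter of a mean of at least 1 TPM. Fold changes are given on the log2(TPM + 1) scale, and a positive value is a higher level in NIL-*hfr131*.

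**Figure D1:**
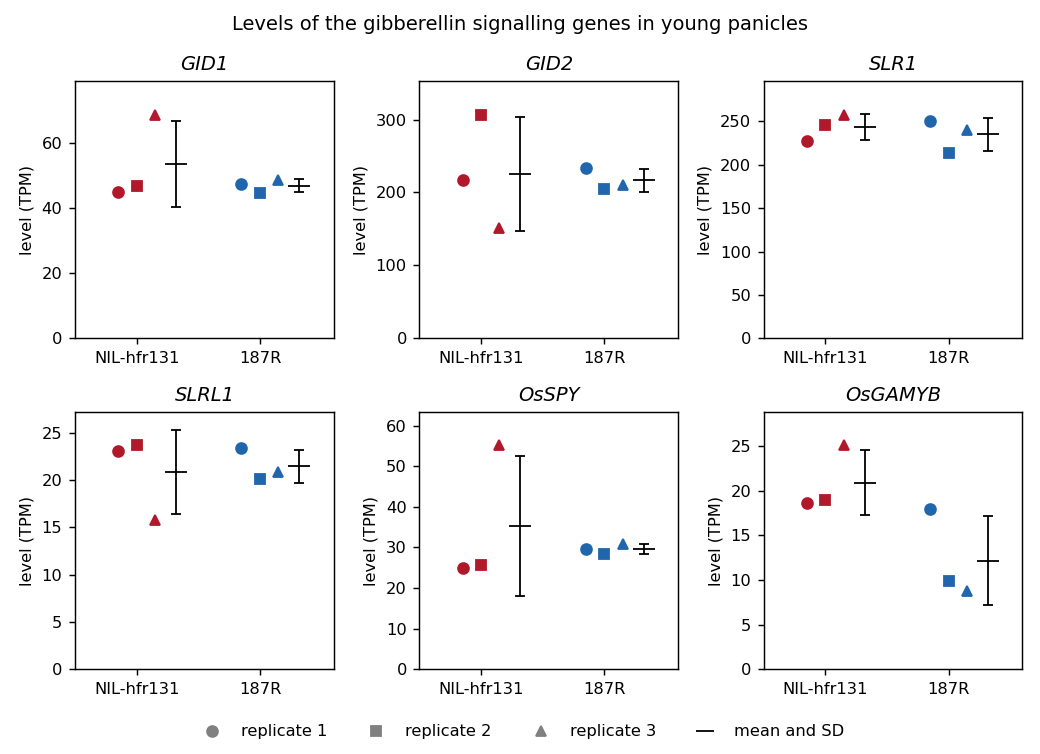
Level of each gene in TPM (vertical axis, from 0) in the 3 NIL-hfr131 libraries (red, left) and the 3 libraries of 187R (blue, right). Symbols mark the replicate, and the black bar gives the mean with its SD. NIL-hfr131 replicate 3 (triangle) was the highest library for GID1 (68.7 TPM) and OsSPY (55.1 TPM) and the lowest for GID2 (151 TPM) and SLRL1 (15.8 TPM).

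The receptor gene *GID1* (LOC_Os05g33730, chromosome 5) was at 45.1, 46.8 and 68.7 TPM in NIL-*hfr131* replicates 1, 2 and 3, and at 47.5, 44.7 and 48.5 TPM in 187R replicates 1, 2 and 3. Its first 2 NIL-*hfr131* libraries lay within the range of 187R, and the third lay above it. The means were 53.5 ± 13.2 TPM in NIL-*hfr131* and 46.9 ± 1.97 TPM in 187R (SD, n = 3 libraries per line). The log2 fold change was 0.16, with a 95% confidence interval of -0.26 to 0.58 (adjusted p = 0.718, limma). The sign turned when NIL-*hfr131* replicate 3 was left out, to -0.03 with an interval of -0.21 to 0.16, so the direction for *GID1* rests on that library.

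*GID2* (LOC_Os02g36974, chromosome 2) encodes the F-box protein that links SLR1 to the ubiquitin ligase. The identifier may hold more than this gene. In the RefSeq table of rice, 2 protein-coding genes on chromosome 2 carry the name *GID2*, they overlap, and 1 of them is also named *GF14E*, a name of the 14-3-3 protein family. A non-coding gene named *GF14E* overlaps them too. How the authors' counting divided reads between them is not given in the sources used here, so the values below are those of the identifier and cannot be assigned to *GID2* alone, although its name is kept. None of the other 5 genes had an overlapping RefSeq gene.

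The level of LOC_Os02g36974 was 217, 307 and 151 TPM in NIL-*hfr131* replicates 1, 2 and 3, and 234, 205 and 211 TPM in 187R replicates 1, 2 and 3. NIL-*hfr131* replicate 2 was above and replicate 3 below all 3 libraries of 187R, and replicate 1 was among them. Their mean was 225 ± 78.3 TPM, compared with 217 ± 15.4 TPM in 187R (SD, n = 3). The log2 fold change of *GID2* was -0.0023 with an interval of -0.58 to 0.58 (adjusted p = 0.997, limma). Leaving out NIL-*hfr131* replicate 3 gave 0.26 (adjusted p = 0.489), leaving out NIL-*hfr131* replicate 2 gave -0.25 and leaving out 187R replicate 1 gave 0.05.

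The DELLA gene *SLR1* (LOC_Os03g49990, chromosome 3) had the highest mean level of the 6 genes and the narrowest range, with a highest library 1.20 times the lowest. It was at 227, 246 and 258 TPM in NIL-*hfr131* replicates 1, 2 and 3, and at 251, 214 and 239.9 TPM in 187R replicates 1, 2 and 3. The libraries of the lines were interleaved. The means were 244 ± 15.4 TPM in NIL-*hfr131* and 235 ± 18.9 TPM in 187R (SD, n = 3), and 98.4% of the listed genes had a lower mean. The log2 fold change was 0.05 with an interval of -0.21 to 0.32 (adjusted p = 0.845, limma). Changes of *SLR1* transcript larger than 0.32 on this scale lay outside the interval. Even in NIL-*hfr131* replicate 3, *SLR1* was only 0.13 above the mean of the other 5 libraries on the log2 scale, and 83.5% of tested genes deviated more in that library. Without 187R replicate 2 the log2 fold change was -0.01.

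*SLRL1* (LOC_Os01g45860, chromosome 1), the relative of *SLR1*, was at 23.1, 23.7 and 15.8 TPM in NIL-*hfr131* replicates 1, 2 and 3, against 23.4, 20.1 and 20.9 TPM in 187R replicates 1, 2 and 3. The lowest library was NIL-*hfr131* replicate 3, and the others overlapped. The log2 fold change was -0.06 with an interval of -0.48 to 0.37 (adjusted p = 0.897, limma). Leaving out NIL-*hfr131* replicate 3 gave 0.12 (adjusted p = 0.632), and leaving out 187R replicate 1 gave 0.0028. Of the summed *SLR1* and *SLRL1* transcripts, *SLR1* made up 90.8%, 91.2% and 94.2% in NIL-*hfr131* replicates 1, 2 and 3, and 91.5%, 91.4% and 92.0% in 187R replicates 1, 2 and 3. *SLR1* was thus the dominant transcript of the pair in every library.

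*OsSPY* (LOC_Os08g44510, chromosome 8) encodes the sugar transferase that acts on the DELLA step. Its levels were 25.0, 25.7 and 55.1 TPM in NIL-*hfr131* replicates 1, 2 and 3, and 29.7, 28.4 and 30.7 TPM in 187R replicates 1, 2 and 3. NIL-*hfr131* replicates 1 and 2 lay under the whole range of 187R, and replicate 3 far above it. Over all 6 libraries the log2 fold change was 0.15 with an interval of -0.55 to 0.85 (adjusted p = 0.833, limma). Leaving out NIL-*hfr131* replicate 3 turned it to -0.22, with an interval of -0.41 to -0.02, which passed unadjusted but not after adjustment (adjusted p = 0.280, limma). In that comparison 14.8% of tested genes passed at an unadjusted *P* under 0.05 and 1.80% when adjusted. *OsSPY* was 0.96 above the mean of the other 5 libraries in NIL-*hfr131* replicate 3, and 14.7% of tested genes deviated more there.

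*OsGAMYB* (LOC_Os01g59660, chromosome 1), the transcription factor gene downstream of the DELLA step, had the lowest mean level and the largest difference between the lines. It was at 18.6, 19.0 and 25.1 TPM in NIL-*hfr131* replicates 1, 2 and 3, and at 17.9, 9.86 and 8.77 TPM in 187R replicates 1, 2 and 3. The ranges did not overlap, but 187R replicate 1 was just under the lowest NIL-*hfr131* library. The means were 20.9 ± 3.63 TPM in NIL-*hfr131* and 12.2 ± 4.99 TPM in 187R (SD, n = 3). The log2 fold change of *OsGAMYB* was 0.78, with an interval of 0.14 to 1.42, and it did not pass the threshold after adjustment (adjusted p = 0.504, limma).

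An absolute log2 fold change larger than that of *OsGAMYB* was found in 2.67% of tested genes. Its size varied with 187R replicate 1 more than with NIL-*hfr131* replicate 3. It was 1.07 (adjusted p = 0.371) without the first of these libraries and 0.65 (adjusted p = 0.303) without the second, by limma. The spread of *OsGAMYB* within 187R was wide, with an SD of 0.511 on the log2 scale, and 1.56% of tested genes had a wider one. Over the 13 alternative settings the log2 fold change of *OsGAMYB* stayed between 0.60 and 1.07 and the adjusted *P* between 0.303 and 0.904.

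**Figure D2:**
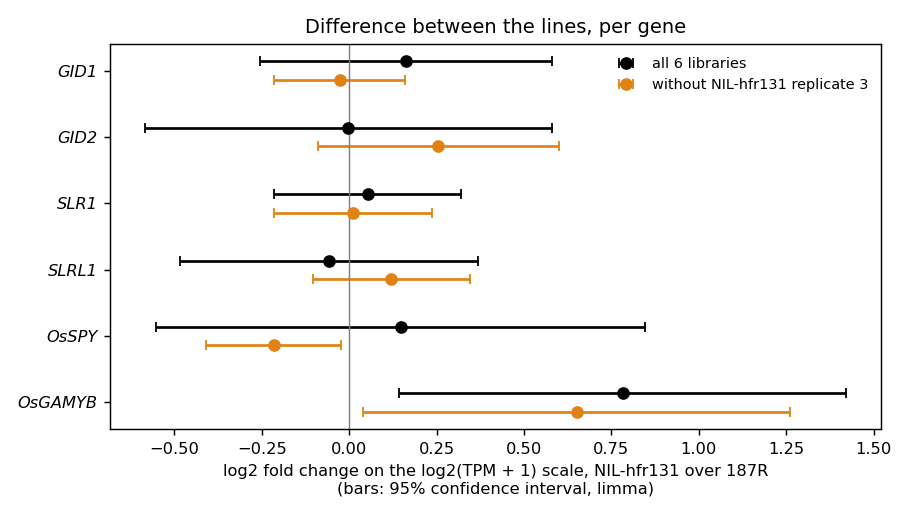
Log2 fold change of each gene, NIL-hfr131 over 187R, on the log2(TPM + 1) scale (horizontal axis), with 95% confidence intervals from limma. Black points use all 6 libraries and orange points leave out NIL-hfr131 replicate 3. The interval of OsGAMYB was above 0 in both (0.78 and 0.65), that of OsSPY was below 0 only in the second (-0.22), and the points of GID1, GID2, SLRL1 and OsSPY changed sign between the fits.

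NIL-*hfr131* replicate 3 moved the genes apart. Against the mean of the other 5 libraries it was higher by 0.96 for *OsSPY*, 0.79 for *OsGAMYB* and 0.55 for *GID1* on the log2(TPM + 1) scale. For *GID2* and *SLRL1* the deviations were -0.62 and -0.47. None of these reached 1 on the log2 scale, a deviation that 13.5% of all tested genes exceeded in this library and at most 0.785% in any other. Deviations as large as those of *GID1*, *GID2* and *SLRL1* were common in it, since 33.1% to 46.1% of tested genes deviated more than each of the 3. Among the other libraries, *GID2* stood out in NIL-*hfr131* replicate 2, at 0.60 above the rest with 2.35% of tested genes deviating more. *OsGAMYB* was low in 187R replicates 2 and 3, at -0.73 with 2.23% deviating more and at -0.91 with 0.720% deviating more.

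**Figure D3:**
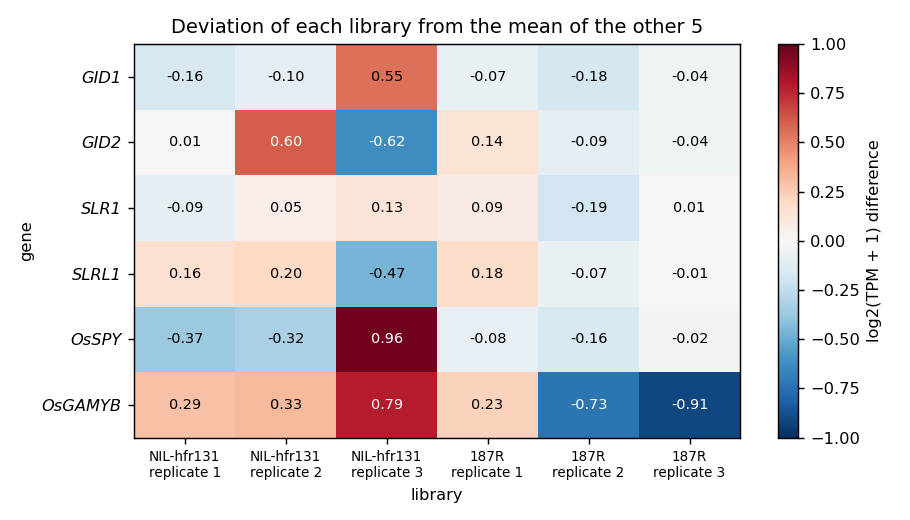
Deviation of each library (columns) from the mean of the other 5 libraries for each gene (rows), as a difference of log2(TPM + 1) printed in the cell and shown by colour (red higher, blue lower). NIL-hfr131 replicate 3 was high for OsSPY (0.96), OsGAMYB (0.79) and GID1 (0.55) and low for GID2 (-0.62) and SLRL1 (-0.47), while SLR1 stayed within 0.19 in every library.

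By mean level over the 6 libraries, the order was *SLR1* at 239 TPM, *GID2* at 221 TPM, *GID1* at 50.2 TPM, *OsSPY* at 32.4 TPM, *SLRL1* at 21.2 TPM and *OsGAMYB* at 16.5 TPM. The ranges of *SLR1* and *GID2* overlapped, although *SLR1* was higher in 5 of the 6 libraries. The *GID2* identifier, which may hold reads of an overlapping gene, was above *GID1* with no overlap. *OsSPY* was above *SLRL1*, also with no overlap. *GID1* and *OsSPY* overlapped in range, although *GID1* was higher in each of the 6 libraries. *SLRL1* was above *OsGAMYB* in 5 libraries and below it in NIL-*hfr131* replicate 3. The *SLR1* level was 5.04, 5.25 and 3.75 times that of the receptor gene *GID1* in NIL-*hfr131* replicates 1, 2 and 3, and 5.28, 4.79 and 4.95 times in 187R replicates 1, 2 and 3.

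Each gene was also set against *SLR1* in the same library, as log2 of (TPM + 1) ratios, in which a common scale factor of a library nearly cancels. The added 1 keeps it from cancelling fully, and with 0.1 in its place the difference for *OsGAMYB* given next was 0.78. For *OsGAMYB* the ratio was -3.54, -3.63 and -3.31 in NIL-*hfr131* replicates 1, 2 and 3, and -3.74, -4.31 and -4.62 in 187R replicates 1, 2 and 3. The lines did not overlap, and the mean difference was 0.73 (two-sided exact permutation test, p = 0.1, adjusted p = 0.5 over 5 ratios). This is the smallest p that 3 against 3 libraries allow, so the test could not pass 0.05. Since *SLR1* varied little (highest library 1.20 times the lowest), this ratio mostly repeats the level of *OsGAMYB* and is not a separate result. How many of all tested genes have separate ratios was not computed. For the other 4 genes the ranges overlapped. The difference in the ratio was 0.11 for *GID1*, -0.05 for *GID2*, -0.11 for *SLRL1* and 0.10 for *OsSPY*, with exact permutation p of 0.8 to 1. All 4 of these changed sign without NIL-*hfr131* replicate 3.

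**Figure D4:**
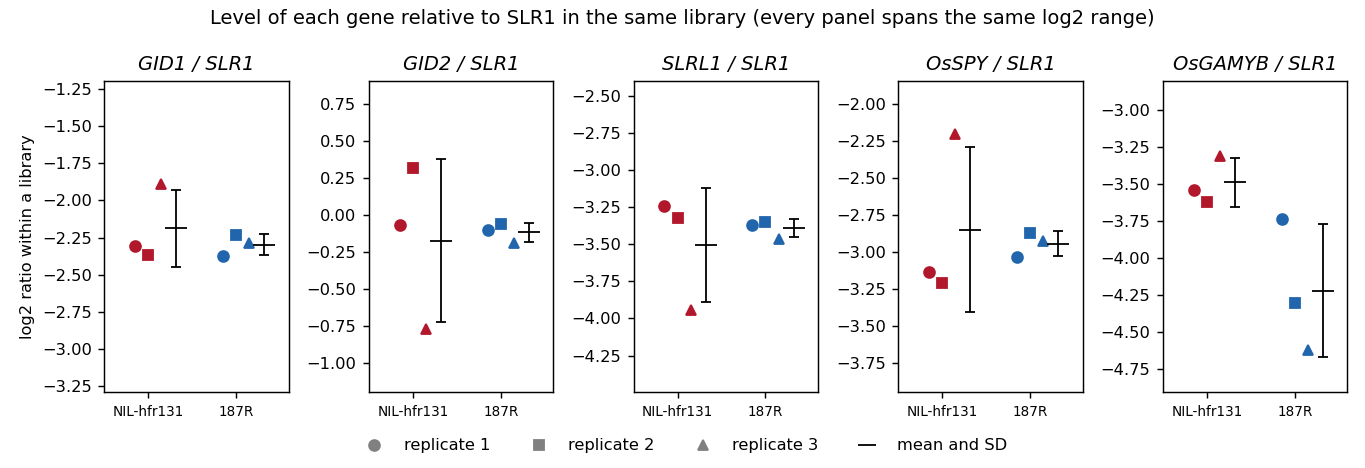
Log2 ratio of each gene to SLR1 within a library, from (TPM + 1) values, in NIL-hfr131 (red, left) and 187R (blue, right). Black bars give the mean and SD of 3 libraries, and every panel spans the same log2 range around its own centre. The lines separate only for OsGAMYB, by 0.73 on average, as they do in its level.

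The likeness of the profiles was described by Pearson's r of log2(TPM + 1), with no test, since all genes share the same libraries. Over 6 libraries, *GID1* was most like *OsSPY* among the other 5 genes and 10 further hormone genes that the study names (r = 0.975, Spearman's rho = 0.829), with r = 0.599 over the 5 libraries without NIL-*hfr131* replicate 3. *GID2* and *SLRL1* were most like each other (r = 0.886, rho = 1), *SLR1* was most like the auxin response factor gene *OsARF17* (r = 0.750, rho = 0.943), and *OsGAMYB* was most like the brassinosteroid synthesis gene *D11* (r = 0.818, rho = 0.886). Each of these is the highest r among 15 candidates. Most of the hormone genes were chosen by the study for a difference between the lines in these libraries. The share of all tested genes with as high an r was not computed. Without NIL-*hfr131* replicate 3 the nearest gene changed for all but *SLR1*, which kept *OsARF17* (r = 0.928 over 5 libraries). *SLRL1* and *OsGAMYB* then were most like each other (r = 0.954), whereas over all 6 libraries their r was -0.183. Of the 15 pairs among the 6 genes, 7 had the same sign of r over 6 and over 5 libraries, and the others turned.

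*SLRL1* and *OsGAMYB* share chromosome 1 with *OsBRI1* and the wild-rice fragment. Locus numbers rise along a chromosome, and that of *SLRL1* is 6190 below *OsBRI1* while that of *OsGAMYB* is 7610 above it. Whether either gene lies in the fragment, and how reads from wild-rice alleles were assigned, was not tested. Among tested genes within 2500 locus numbers, 5 of 202 around *SLRL1* (2.48%) and 0 of 247 around *OsGAMYB* were called at an adjusted *P* under 0.05, beside 0.307% of all tested genes.

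The 10 further hormone genes put the 6 in context. They were *OsGA2ox10*, which inactivates gibberellin, *OsAP2-39*, a transcription factor gene, *OsBRI1*, the brassinosteroid synthesis genes *D2*, *D11* and *BRD1*, the auxin transport genes *OsPIN1d*, *OsPIN8* and *OsAUX2*, and *OsARF17*. The study lists *OsAP2-39* with genes whose raised level gives dwarf plants, and counting it as a hormone gene was a choice made here. The study chose most of them on these libraries, where it reported them as significantly higher or lower, so they are not independent evidence. The chosen genes all had an unadjusted *P* under 0.05 in the study. Only *D11* and *OsAP2-39* were also under 0.05 in its adjusted values (q). In the limma fit used here, 0 of 10 rose and 0 fell at an adjusted *P* under 0.05. *OsAP2-39* and *D11*, both reported as up by the study, were just over that threshold (adjusted p = 0.0555 and 0.0655, limma). At an unadjusted *P* under 0.05, 5 were higher and 3 lower, where 8.36% of all tested genes passed. These were the genes that the study reported from the same libraries, each in the direction it gave. Without NIL-*hfr131* replicate 3, *D11* and *OsAP2-39* rose when adjusted (2 of 10). In the same fit 0 of the 6 gibberellin signalling genes were called, beside 1.80% of all tested genes. *OsGA2ox10* was at 1.54, 1.86 and 1.74 TPM in NIL-*hfr131* replicates 1, 2 and 3. In 187R replicates 1, 2 and 3 it was at 1.07, 0.752 and 1.14 TPM, so the lines did not overlap. Its log2 fold change on the log2(TPM + 1) scale was 0.45 (adjusted p = 0.523, limma). At levels this low the added 1 makes the change smaller. Taken from the line averages with no 1 added, the change of *OsGA2ox10* was 0.80 in log2 units, which was not tested here. The study listed the same change, which was under 0.05 there by its unadjusted *P* but not by its q value.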

How the data were processed

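RNA of young panicles was measured in 3 libraries each of NIL-*hfr131* and 187R, grouped by title. The authors deposited TPM values for 42189 genes; their methods name FPKM, but every deposited column sums to 1000000. The aligner, genome build, annotation and filters are not given in the sources used here. Depth is unknown, since TPM does not keep it. Identifiers were used as deposited. Names of the 6 genes were looked up in the RefSeq table (assembly ASM3414082v1), where all 6 names matched a gene on the chromosome of the identifier. No identifier of the file is in that table, and no coordinates are given. No sequences are shown.

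Genes with a mean of at least 1 TPM were fitted on log2(TPM + 1) with limma 3.58.1 in R 4.3.3 (line as the term, prior following the mean level), with two-sided *P* values adjusted by Benjamini-Hochberg over all 21531 tested genes. The script was tested on simulated data. Ratios were compared by exact permutation in scipy 1.17.1. The alternatives tried were leaving out each library, a block for the replicate number, scaling by quantiles or by median-of-ratios factors, a prior with no trend, a minimum of 5 TPM or none, and a pseudocount of 0.1. The genes, lists and rules were chosen with earlier results of these data known. The genes named were the 6, the 10 hormone genes whose identifiers the study pairs with names, and for each of the 6 the most similar of these. Whether a library is 1 plant or a pool is not given in the sources used here, so *P* values measure the spread between these libraries.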

Additional observations from a re-analysis of the deposited data

How the results depend on the processing

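No gene of the 6 was called in any of the 13 alternative fits. Of 78 alternative fold changes 71 kept their direction, and the 7 that turned all came from leaving out 1 library. The other filters, the prior with no trend and the replicate block leave each fold change as it was. Directions could not turn in those settings, so their share of the 71 says nothing of stability. With each library left out in turn, the log2 fold change was -0.027 to 0.27 for *GID1*, -0.25 to 0.26 for *GID2*, -0.013 to 0.10 for *SLR1*, -0.16 to 0.12 for *SLRL1* and -0.22 to 0.34 for *OsSPY*. The ratio to *SLR1* differed between the lines by -0.038 to 0.20 for *GID1*, -0.30 to 0.24 for *GID2*, -0.24 to 0.11 for *SLRL1* and -0.23 to 0.27 for *OsSPY*. The cause was not tested. The fit with the replicate block called 16 genes of all tested, against 66 without it, and 0 of the 6. The numbers gave no sign of pairing, since same-numbered libraries had correlations of deviations of -0.212, 0.0602 and 0.0905. Those with different numbers spanned -0.232 to 0.316. With 3 libraries per line this check cannot exclude a pairing. Leaving out a library gave 13 to 384 called genes, the 384 without NIL-*hfr131* replicate 3. With 3 libraries per line, intervals for *GID1*, *GID2*, *OsSPY* and *OsGAMYB* reach beyond 0.5 on the log2 scale. A gene that did not pass is thus not shown to be unchanged.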
